A study of Homo sapiens with 5 samples.

Results

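Chromosome contacts of HL60 cells treated with the phorbol ester TPA were compared with those of untreated HL60 cells, over 4 of the 5 libraries of the series. HL60 is an established human promyelocytic leukemia cell line, so all libraries come from 1 cell line and its rearranged karyotype. The untreated group is HL60 without treatment (2 libraries) and the TPA group is HL60 after phorbol ester (2 libraries), while the remaining library, HL60 treated with retinoic acid (ATRA), served here only to define compartments and, with the other matrices, the bins with enough contacts. The dose and time of TPA are not stated in the labels used here, and the series title refers to intergenic variants associated with rheumatoid arthritis. The 2 libraries of each group were deposited as 1 merged matrix, so each group is a single measurement with no replicate check. Every interval below is a 95% counting interval, which covers neither culture nor library variation, and library effects cannot be told apart from treatment.

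Hi-C cross-links chromatin, cuts it with a restriction enzyme (HindIII here), joins ends that lie close together and counts the joined pairs. Chromosomes divide into an active, gene-rich A compartment and an inactive B compartment, and regions contact their own kind more often than the other kind. TPA mimics diacylglycerol, binds the C1 domains of protein kinase C, and drives HL60 cells to stop dividing, adhere and become macrophage-like. The genes below were placed by hand at their hg19 positions in bins of 500 kb, and a bin is shared by all genes it contains, so its value belongs to the region and not to 1 gene. RNA was not measured, so the labelled cell states could not be checked against marker genes.

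The untreated matrix held 10247796 autosomal contacts and the TPA matrix 10034727, with a median of 3497 and 3488 contacts per bin. Contacts between different autosomes made up 60.5% and 63.1% of them. Of 5773 autosomal bins, 5349 had enough contacts to be compared. HL60 carries joined chromosome segments, and 783 bin pairs at such joins held 0.806% of untreated and 0.740% of TPA contacts between autosomes.

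The first comparison asked how the contacts of whole chromosome arms shifted. In TPA cells all 39 arms had a higher share of contacts with other autosomes and all 39 a lower share within the arm. The median arm gained 1.85 percentage points with other autosomes. With contacts inside single bins left out, 38 of 39 arms were higher, and 8p turned, at 74.0% and 73.9%. The short arm of chromosome 19 (19p), on the most gene-dense human chromosome, went from 65.8% (65.6 to 66.0) to 73.6% (73.4 to 73.8). 17p followed, from 72.6% to 78.5%, then 19q (68.7% to 73.5%), 17q (74.7% to 79.3%) and 16p (78.3% to 82.2%). These 5 arms lie on 3 gene-rich chromosomes. At the other end, 8p measured 70.5% (70.3 to 70.6) and 70.8% (70.6 to 70.9), and 6p 69.1% and 70.0%.

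Of the contacts that an arm made within its own chromosome, a larger share joined the other arm in TPA cells. Of 34 arms with a measured partner, 33 had a higher such share. Both arms of a chromosome use the same count of contacts between them, and the share within the arm fell in all 39 arms. The 33 are thus not independent of each other or of that fall. On 19p this share went from 24.5% to 30.9%, and on 11p from 33.4% to 38.0%. The exception was 17q, with 8.38% in untreated and 8.01% in TPA cells. As a share of all contacts of the arm, contacts with the other arm were higher in 20 of the 34 and lower in 14, and on 19p they measured 8.37% and 8.15%.

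Arm pairs on different chromosomes were set against the contacts expected from the total of each arm. Small gene-rich chromosomes lost contacts with each other, and some of their arms gained contacts with arms of larger chromosomes. Of 724 arm pairs, 14 fell by more than 0.25 on the log2 scale (1.93% of pairs) and 9 rose by more than 0.25 (1.24%). The largest fall joined 19p and 22q, with 3909 untreated and 2768 TPA contacts, and its ratio of observed to expected went from 2.10 to 1.47 (log2 change -0.52, -0.59 to -0.45). The next falls were 17p with 19p (-0.50), 17p with 22q (-0.47), 19p with 20q (-0.46) and 16p with 19p (-0.44). All 14 falls lay among chromosomes 16, 17, 19, 20 and 22, where 30 of 32 arm pairs were below 0 with a median of -0.23. This set of chromosomes was not fixed before the data were seen. The 14 falls are part of the 32 pairs, so the count and median are not separate support. Outside the set, 19p with 21q measured -0.23. All 9 rises joined an arm of chromosomes 16, 17, 19 or 22 to 4q, 5p, 6q, 8q, 9p or 13q.

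The largest rise joined 5p and 16p. These arms shared 3960 contacts in untreated and 5573 in TPA cells, a ratio to expected of 1.13 and 1.50 (log2 change 0.41, 0.35 to 0.47). The gain covered many blocks: 67 of 80 pairs of 5 Mb blocks had a higher share of total contacts, though some pairs held few or no contacts. All contacts between autosomes rose from 60.5% to 63.1% of the total, so a ratio of 1 on this scale is not the value of no change between arms. No joined bin pair lay between the arms, and no single bin pair held more than 8 untreated or 9 TPA contacts. The ratio of TPA to untreated contacts, scaled to total contacts, was 1.41, and 1.39 without the 20 bin pairs of largest gain. Along 5p, the 4 blocks of 5 Mb from 10 to 30 Mb measured 1.66 to 1.75 times, the first block 1.06 times and the last 1.93 times (99 and 190 contacts). Along 16p, blocks measured 1.22 to 1.61 times up to 30 Mb, then 1.04 times, and 0.75 times in the last, which held 16 and 12 contacts. The other leading rises were 4q with 19p (0.32, 3647 to 4972 contacts), 6q with 19p (0.29), 6q with 17p (0.27) and 13q with 22q (0.27). Whether the number of copies of 5p or 16p differed between the cultures was not tested.

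**Figure D1:**
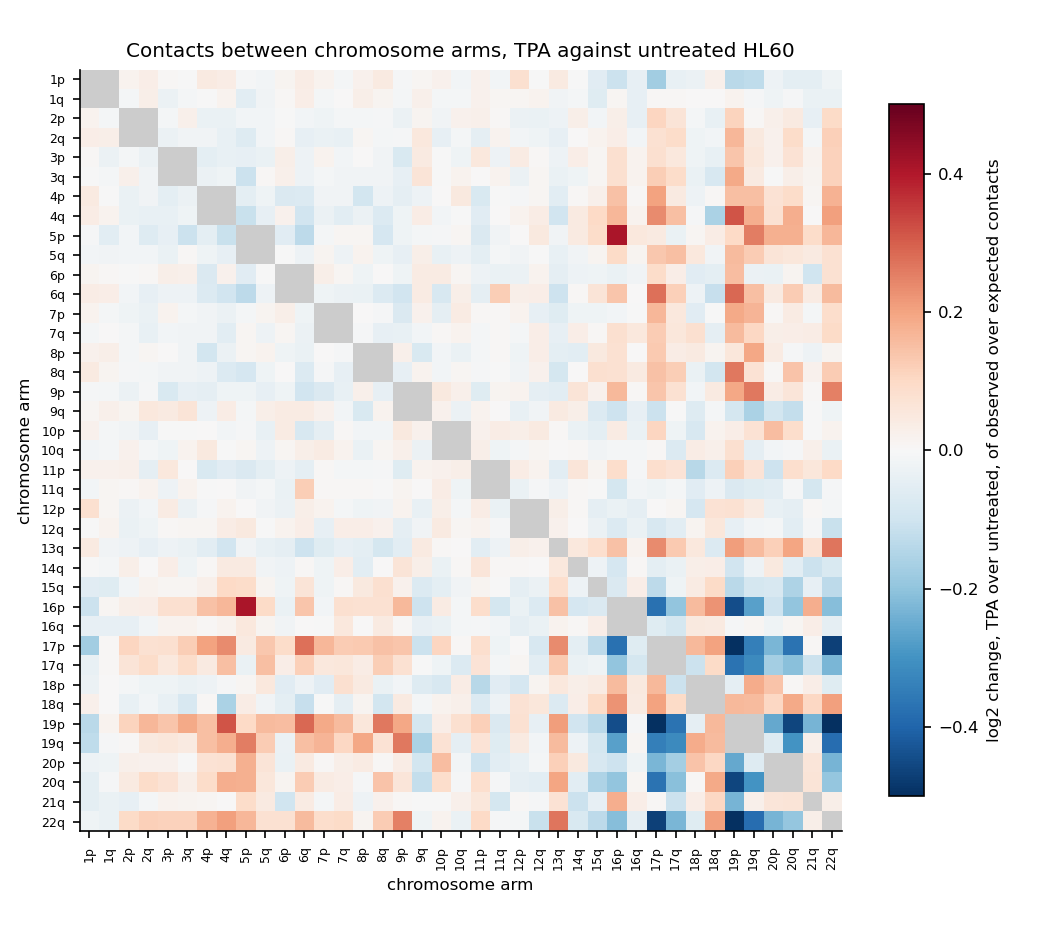
Log2 change, TPA over untreated, of observed over expected contacts for 724 pairs of 39 chromosome arms (both axes), blue lower and red higher in TPA, grey for pairs within a chromosome. The blue block at the lower right holds the pairs among chromosomes 16, 17, 19, 20 and 22, down to -0.52 for 19p and 22q, and the darkest red pair is 5p with 16p at 0.41.

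The second comparison asked which 500 kb bins changed compartment. A preference is the log2 ratio of a bin's contacts with A bins to its contacts with B bins on other autosomes, each divided by the total of those bins, so that positive values lie on the A side. The A and B bins (1605 each) were taken from the ATRA matrix, which enters neither side of the comparison. A change was called where A preference differed by more than 0.5. In TPA cells 79 bins rose (1.48% of 5349) and 132 fell (2.47%). The pattern as a whole was kept, with r = 0.889 across bins, which share libraries and are not independent. Among the bins that rose, 56 went from the B to the A side, and among those that fell 67 went from the A to the B side. The change varied across bins with an SD of 0.24, against a counting error of 0.12.

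The 5 strongest rises were in bins of ST8SIA4, AHR, PHLDA1, RGS genes and SPRY2. The bin at 100.0 to 100.5 Mb of chromosome 5, with ST8SIA4, which builds polysialic acid on cell-surface proteins, made 273 contacts with A and 306 with B bins in untreated cells, and 430 and 278 in TPA cells. Its A preference went from -0.55 to 0.32, a rise of 0.86 (0.54 to 1.18). The bin is sparse, with 1436 and 1652 contacts in total, and has no value at a coverage minimum of 0.5 of the median. The bin at 17 to 17.5 Mb of chromosome 7 holds AHR, the ligand-activated aryl hydrocarbon receptor, and its A preference went from -0.21 to 0.62, with 594 A and 535 B contacts becoming 910 and 482. Both bins crossed from the B to the A side.

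PHLDA1, a pleckstrin homology-like protein, and NAP1L1, a histone chaperone, share the bin at 76.0 to 76.5 Mb of chromosome 12, which went from -0.07 to 0.72. RGS1, RGS13 and RGS2, which switch off G protein signalling, share the bin at 192.5 to 193.0 Mb of chromosome 1, which went from -0.27 to 0.48 (change 0.74, 0.51 to 0.98). SPRY2, an inhibitor of receptor tyrosine kinase signalling, lies at 80.5 to 81.0 Mb of chromosome 13, where A preference went from -0.04 to 0.65. The intervals of the untreated and TPA values did not overlap in any of these 5 bins. The bins were picked as the largest rises, so this adds no support to their change. The only run of 3 or more adjacent rising bins spanned 12.0 to 13.5 Mb of chromosome 2 and holds TRIB2, a pseudokinase known to promote degradation of the granulocyte factor C/EBP alpha. Its mean went from -0.32 to 0.24.

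Falls came in longer stretches, with 9 runs holding 44 bins. The largest single falls were in 2 zinc finger bins of 19p. The bin of 9.5 to 10.0 Mb (ZNF121, ZNF561 and ZNF846) had 1175 A and 569 B contacts, then 924 and 848, and its A preference went from 0.75 to -0.11 (change -0.85, -1.05 to -0.66). At 12.0 to 12.5 Mb (ZNF700, ZNF136, ZNF44 and ZNF442) it went from 0.70 to -0.12. The end of 12q held the longest run, 8 bins from 130 to 134 Mb, whose mean went from 0.58 to -0.01. It covers ULK1, a kinase that starts autophagy, EP400, a chromatin remodeller, POLE, a DNA polymerase subunit, GOLGA3, a Golgi protein, and a terminal cluster of zinc finger genes (ZNF26, ZNF84, ZNF140, ZNF10 and ZNF268), whose bin at 133.5 Mb went from 1.13 to 0.38.

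Another fall on 12q, at 125.5 to 126.0 Mb, holds AACS, which activates acetoacetate for lipid synthesis, and TMEM132B, and went from 0.19 to -0.55. On 16p, the 26.5 to 27.0 Mb bin had its A preference change from -0.06 to -0.83. Relative to the median of 16p its change was -0.4987, just short of the threshold. Further runs lay at 132 to 134 Mb of chromosome 10, with BNIP3, a mitophagy receptor (mean 0.15 to -0.45), at 119 to 120.5 Mb of chromosome 12 and at 41 to 42.5 Mb of chromosome 20. The other 5 runs were all on chromosome 19.

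**Figure D2:**
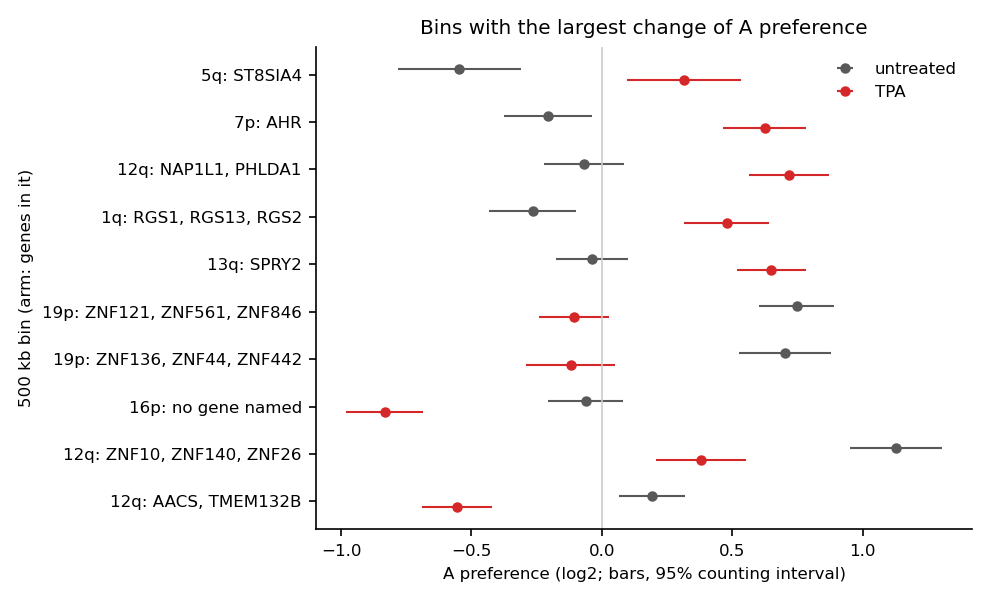
A preference (log2, horizontal axis) of the 5 bins that rose most and the 5 that fell most, labelled by arm and up to 3 of their genes, in untreated (grey) and TPA (red) cells, with 95% counting intervals as bars. The intervals of the matrices do not overlap in any of the 10 bins, which were picked by the size of their change. The 5q bin with ST8SIA4 moved from -0.55 to 0.32.

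Arms differed in the direction of the shift. The median bin had a higher A preference in 25 arms and a lower one in 14. The largest gains were on 4q (median change 0.19), 6q and 8q (0.18 each), and the largest losses on 19q (-0.43), 16p (-0.27), 17p (-0.26) and 20q (-0.25). These 4 arms, whose median A preference in untreated cells was 0.36 to 0.70, were among those that lost contacts with each other. With A and B bins taken only outside chromosomes 16, 17, 19, 20 and 22 (an alternative added later), 65 bins rose and 107 fell, and 24 of the falls were on chromosome 19.

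The change also varied with position along the chromosome. Bins within 2 Mb of a chromosome end (146) went from a median A preference of 0.92 to 0.75, and 13 of them fell (8.90%) while 1 rose. Among the 4581 bins 10 Mb or more from an end, the median change was 0.08. Total contacts of the end bins were lower by a median of 0.12 on the log2 scale. Near centromeres the total moved the other way, by a median of 0.09 within 2 Mb. With all bins ranked into 10 groups by the ATRA eigenvector, median changes of total contacts in the 2 highest groups were -0.07 and -0.15. Position was not separated from compartment, and end bins were not compared with bins of like A preference elsewhere.

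**Figure D3:**
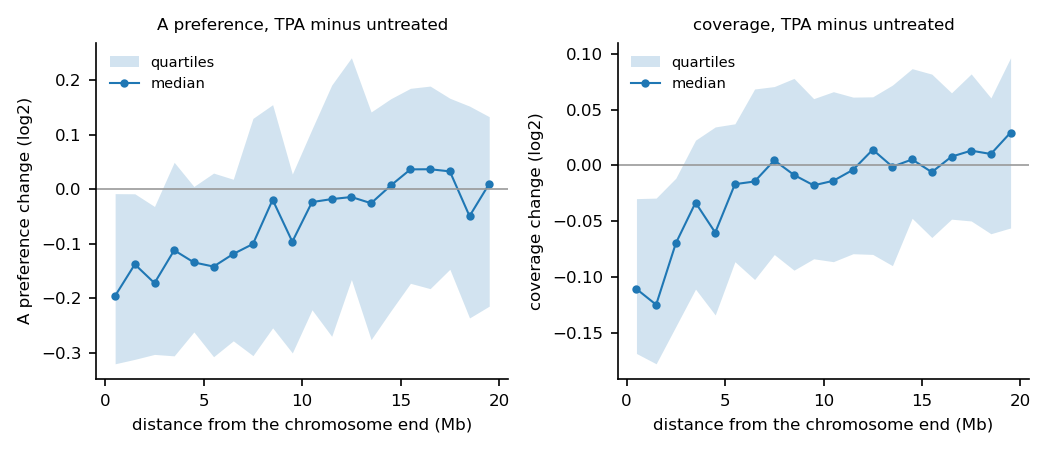
Change in A preference (left) and in total contacts per bin, called coverage (right), TPA minus untreated on the log2 scale, against the distance from the nearest chromosome end in 1 Mb steps, as the median (points) and quartiles (band) of 68 to 78 bins. In the first 1 Mb the medians are -0.20 for A preference and -0.11 for coverage, and both approach 0 inside the chromosome.

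Chromosome 19 held 36 of the 132 falls in its 113 bins and none of the 79 rises. Its KRAB zinc finger genes encode DNA-binding repressors, many of which silence transposable elements, and sit in dense clusters. The 112 such genes placed here, a list added after the data were seen, lie in 32 bins. The median A preference of these bins went from 0.38 to -0.14, and 18 of the 32 fell. In the other 81 bins of the chromosome it went from 1.17 to 0.89, and 18 of 81 fell. For scale, the tenth of all bins with the highest ATRA eigenvector went from 1.04 to 0.98. Relative to the median of each arm, 4 of the 10 falls on 19p and 0 of the 26 on 19q passed -0.5. The median change was -0.43 on 19q and -0.22 on 19p, where several bins 5.5 to 10 Mb from the centromere measured about the same in both matrices (1.02 and 1.02 at 10 Mb). The clusters of 19p near the centromere, from ZNF253 at 19.5 Mb to ZNF254 at 24.0 Mb, were already on the B side in untreated cells except at 19.5 Mb.

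**Figure D4:**
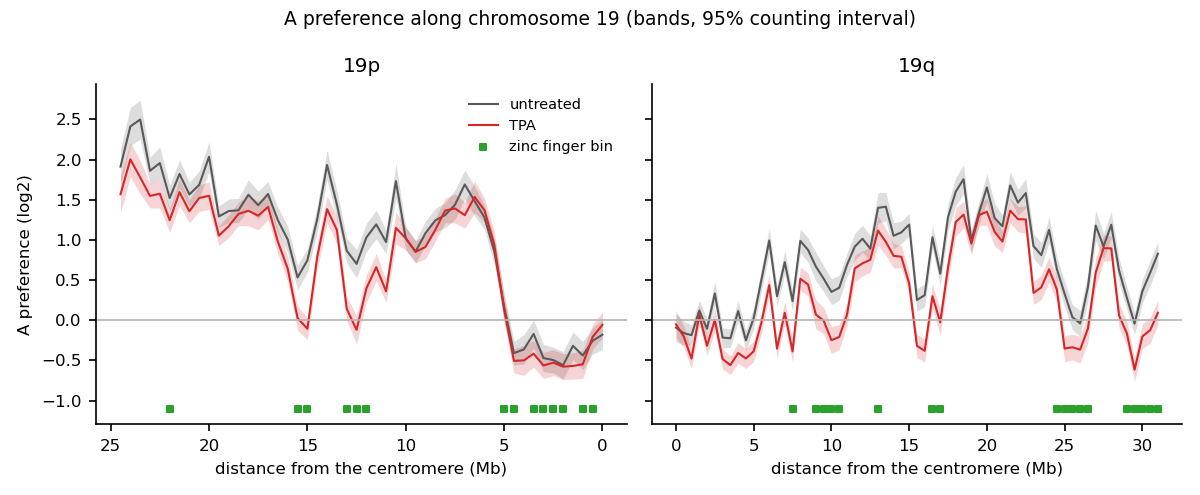
A preference (log2, vertical axis) along 19p and 19q against distance from the centromere, in untreated (grey) and TPA (red) cells with 95% counting bands, and bins with KRAB zinc finger genes as green squares. The red line lies below the grey line along most of both arms, and several dips that hold zinc finger bins cross 0 in TPA cells, such as ZNF121 (0.75 to -0.11).

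The zinc finger bins contacted each other more often in TPA cells. Within chromosome 19, pairs of zinc finger bins 15 to 60 Mb apart made 1694 contacts in untreated and 3677 in TPA cells, which is 1.27 and 2.79 times the mean at the same distance (log2 change 1.13, 1.05 to 1.22). At 5 to 15 Mb they made 893 and 1666 contacts, or 1.25 and 2.30 times (0.88, 0.76 to 1.00). Contacts between 2 other bins at 15 to 60 Mb went from 1.08 to 0.80 times (-0.43), and those between a zinc finger and another bin were 0.85 and 0.88 times. As a double ratio, in which both kinds of like contacts are set over the square of the unlike, an alternative added after the data were seen, the log2 changes are 0.60 at 15 to 60 Mb and 0.70 at 5 to 15 Mb. Total contacts of the zinc finger bins were lower by a median of 0.07 on the log2 scale.

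Single bin pairs of the same matrices were compared next. Pairs within a chromosome, at least 1 Mb apart and with at least 40 contacts in both matrices together, were called at a 3-fold change of the ratio to the mean at the same distance. Of 15962 such pairs, 33 rose (0.207%) and 41 fell (0.257%), and chromosome 19 had 9 of the 33 rises. The bin at 37.0 Mb (ZNF382, ZNF461 and others) with that at 58.0 Mb (ZNF419, ZNF416 and others) had 5 contacts in untreated and 35 in TPA cells, a rise of 6.63-fold (2.60 to 16.9). The bin at 21.5 Mb (ZNF100) with that at 57.0 Mb (ZNF471, ZNF470) had 7 and 35 contacts. Both pairs link clusters of the same gene family across 20 Mb or more. A minimum on the sum lets a pair with few contacts in 1 matrix pass only through the other. Both pairs passed only through their TPA counts, and their contacts are part of the zinc finger sums above. They are thus not separate support. With a minimum of 80 contacts, 0 pairs rose and 2 fell.

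Outside chromosome 19, a zinc finger cluster on 7q stood among the largest changes of the contacts across a bin, counted between the 3 bins before and the 3 bins after it. These were divided by the mean of the chromosome, and a change past 0.5 on the log2 scale was called. A higher value means weaker insulation of the bin's sides from each other. Of 5031 bins, 133 rose (2.64%) and 230 fell (4.57%). The 27 chromosome 19 zinc finger bins with a value had a median change of -0.35, opposite to the 7q cluster, with 4 rises and 7 falls. At 148.5 to 149.0 Mb of chromosome 7, with ZNF786, ZNF398 and ZNF282, 132 contacts across became 239 (log2 change 1.10, 0.79 to 1.40). Among these contacts, the bins at 147.5 and 149.0 Mb (the latter with ZNF777 and ZNF746) went from 13 to 51. That pair is part of the contacts across and is not separate support. The nominally largest rise, at 45.0 Mb of chromosome 18, rests on 1 and 2 contacts and cannot be read.

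Contacts across other bins changed in both directions. More contacts crossed 69.5 Mb of chromosome 10 (80 and 124), 75.0 Mb of chromosome 16 (152 and 226) and 142.5 Mb of chromosome 3 (117 and 172). Fewer crossed 48.0 Mb of chromosome 11 (72 and 23), 32.5 Mb of chromosome 16 (48 and 16) and 50.0 Mb of chromosome 3 (119 and 42). With windows of 5 bins the changes were smaller at 48.0 Mb of chromosome 11 (-0.57 against -1.42), at 75.0 Mb of chromosome 16 (0.57 against 0.87) and at 50.0 Mb of chromosome 3 (-0.47 against -1.23), the last below the threshold. At 63.0 Mb of chromosome 15, the bin of TPM1, an actin-binding tropomyosin, 209 contacts became 73 (log2 change -1.27, -1.65 to -0.88). A run of falls from 71.5 to 73.0 Mb of chromosome 7 ends in the bin of BAZ1B, a chromatin regulator, and includes the fall from 152 to 52 at 72.0 Mb. Another, from 3.5 to 5.5 Mb of chromosome 11, starts in the bin of NUP98, a nuclear pore protein, and STIM1, a calcium sensor, and ends in that of the beta globin gene HBB.

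The remaining bin pair changes were scattered over 18 chromosomes. On 6q, the bins at 159.5 and 164.5 Mb went from 6 to 45 contacts (6.52-fold), while those at 160.5 and 167.0 Mb, 6.5 Mb apart, went from 50 to 16. The bins at 233.5 and 237.5 Mb of chromosome 1 went from 6 to 35 contacts (5.45-fold). Gains and losses thus lay within a few Mb of each other on 6q. Losses with the most contacts were at 44.5 and 45.5 Mb of chromosome 7 (74 to 15 contacts) and at 18 and 36.5 Mb of chromosome 20 (73 to 19). Of the 41 falls, 23 joined bins less than 3 Mb apart, against 7 of the 33 rises.

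The third comparison took the genes of the macrophage and promyelocyte programmes. The 161 genes form 8 lists, and for each the A preference of its bins was set beside that of all bins, whose median change was 0.06. Over all bins, 1.48% rose and 2.47% fell. For no list did more than 1 bin rise, and the median changes lay between -0.15 and 0.07. Most bins of these lists stayed within the threshold in TPA cells at this resolution. Relative to the median of their arm, the PRKCD bin kept its call among the called bins named here (-0.68), while APOE (-0.20), JUNB with KLF1 (-0.42), CEBPA (-0.12), RASGRP4 (-0.19), PLAUR (-0.30) and CSF2 (0.48) did not.

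Genes of the macrophage surface and secreted proteins lay in 21 bins with a median change of -0.04, of which 0 rose and 1 fell. The fall was the 19q bin of APOE, a lipid carrier secreted by macrophages, from 1.28 to 0.66 (1184 A and 395 B contacts, then 907 and 491). VDR, the vitamin D receptor, measured 0.41 and 0.03. CSF1R, the receptor for macrophage colony-stimulating factor, measured 0.13 and 0.48 (change 0.35, 0.18 to 0.53), short of the threshold. IL1RN, an antagonist of interleukin 1, measured 0.37 and 0.67. The bin shared by the integrins ITGAM and ITGAX, markers of myeloid differentiation, measured 0.72 and 1.01, and contacts across it dropped from 107 to 44. Contacts across rose in 2 other bins of the list, those of FCGR2A, an Fc receptor (131 and 174), and IL1RN, so 2 of its 19 bins with a value rose and 1 fell, beside 2.64% and 4.57% of all bins.

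Transcription factors of macrophages and of the early response had 22 bins, a median change of 0.07, 0 rises and 1 fall. The fall was JUNB, an AP-1 subunit, from 1.03 to 0.40, in a bin of 19p that also holds zinc finger genes. FOS, its AP-1 partner, measured 0.65 and 1.13 (0.47, 0.21 to 0.74), and RUNX1, a master regulator of blood formation, -0.00 and 0.49 (0.49, 0.31 to 0.67). Both bins stayed below the threshold. Their counting intervals did not include 0, but changes over all bins had an SD of 0.24 against a counting error of 0.12. Such intervals are therefore not particular to these bins. Total contacts fell by more than 0.25 on the log2 scale for JUND (-0.33), FOSL1 (-0.34) and RELA (-0.26), against 0.486% of all bins. In the tenth of all bins with the highest ATRA eigenvector, the median change of total contacts was -0.15. The bins of this list had a median A preference of 0.55 in untreated cells. They were not compared with bins of like A preference.

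In the promyelocyte granule list, 15 genes lie in 10 bins, the median change was -0.07 and 0 bins rose or fell. ELANE, PRTN3 and AZU1, neutrophil serine protease family genes that share a bin at the end of 19p, measured 2.41 and 2.00. RNASE2 and RNASE3, eosinophil ribonucleases, measured 0.33 and 0.67. CAMP, an antimicrobial peptide, measured 1.30 and 0.99, and LCN2, an iron-siderophore binding protein, 1.73 and 1.61. All 4 bins were on the A side in both matrices.

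Among promyelocyte growth and progenitor factors, 21 bins had a median change of -0.01, with 0 rises and 1 fall. CEBPA on 19q, which directs granulocyte differentiation, fell from 0.99 to 0.44 (1233 A and 504 B contacts, then 1042 and 656). CEBPE, which acts later in granulocyte maturation, measured 0.77 and 0.39, and TERT, the telomerase catalytic subunit, 0.99 and 0.57. BCL2, an inhibitor of apoptosis, measured -0.02 and 0.44, and its contacts with other autosomes went from 63.3% to 74.3%.

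The protein kinase C family and phorbol ester pathway had 20 bins, a median change of -0.00, 0 rises and 3 falls, against 2.47% of all bins that fell. PRKCD, the delta isoform that binds phorbol esters, fell from 0.77 to 0.20 (change -0.57, -0.84 to -0.30), with 725 A and 334 B contacts, then 514 and 368. RASGRP4, a Ras activator with a diacylglycerol-binding domain, fell from 0.69 to 0.07 on 19q. PRKD3, a kinase downstream of protein kinase C, measured 0.07 and 0.56, and DUSP6, a phosphatase that limits ERK signalling, -0.06 and 0.41.

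Adhesion, matrix and cytoskeleton genes had 21 bins, a median change of 0.04, 0 rises and 1 fall. PLAUR, the urokinase receptor, fell from 1.03 to 0.30 (-0.73, -0.94 to -0.53) in a 19q bin that also holds zinc finger genes, while its ligand PLAU on chromosome 10 measured 0.72 and 1.10. ICAM1, a ligand of leukocyte integrins, measured 1.26 and 0.79, and TGFBI, a matrix protein, -0.08 and -0.53. Fibronectin (FN1) gained contacts across its bin (194 and 237), whereas fewer crossed those of ITGA5 (249 and 139), ITGAL (147 and 73) and the cell cycle inhibitor CDKN1A (435 and 269). The ITGAL fall is part of the chromosome 16 run described above. Contacts across thus rose in 1 and fell in 3 of the 21 bins, beside 2.64% and 4.57% of all bins. The protein kinase C list had the same 1 rise and 3 falls in 20 bins.

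For cytokines and chemokines, 20 genes lie in 16 bins, with a median change of 0.06, 1 rise and 0 falls. CSF2, which encodes granulocyte-macrophage colony-stimulating factor, rose from -0.26 to 0.34 (0.59, 0.30 to 0.88), with 383 A and 351 B contacts in untreated and 497 and 317 in TPA cells. IL1R1, the interleukin 1 receptor, measured 0.03 and 0.46, IL12B 0.01 and 0.36, and the bin of IL1A and IL1B, which also holds IL1RN, 0.37 and 0.67. The 109 contacts across that interleukin 1 bin in untreated cells became 136 in TPA cells, a rise of 0.56 after scaling. Contacts across rose in 1 and fell in 0 of the 16 bins, beside 2.64% and 4.57% of all bins. TGFB1, an inhibitory cytokine, measured 1.05 and 0.80.

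Genes of lymphoid and erythroid lineages, which HL60 does not form, had 20 bins, a median change of -0.15, 0 rises and 1 fall. KLF1, an erythroid factor, shares the JUNB bin and its fall. IKZF1, a lymphoid regulator, measured -0.32 and 0.15, and the T cell genes CD8A and CD4 measured 0.19 and -0.20, and 1.51 and 1.15. BCL11B, a T cell factor, measured 0.22 and -0.14.

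**Figure D5:**
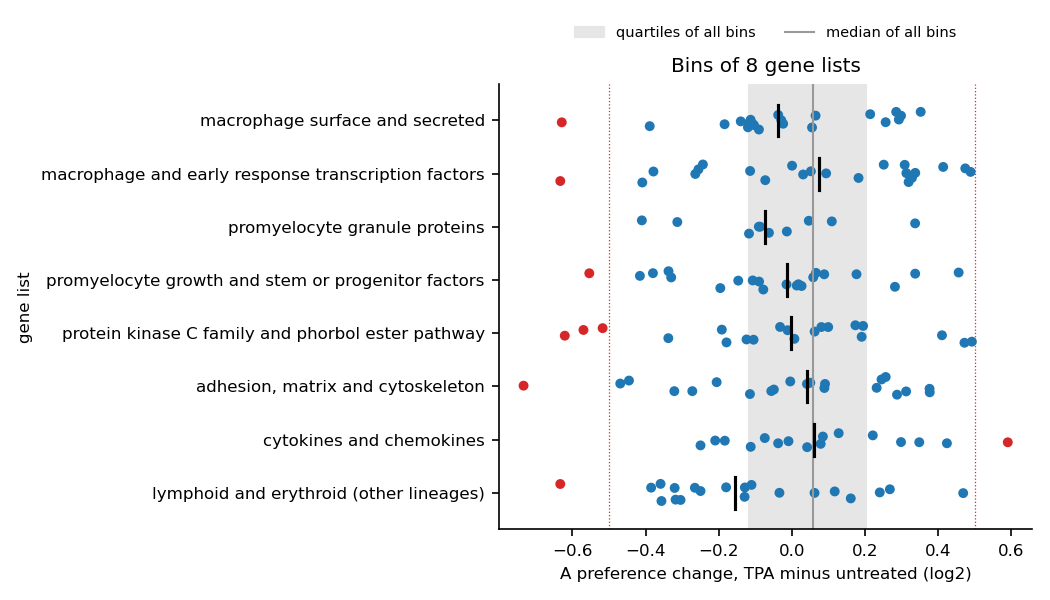
Change in A preference (log2, horizontal axis, TPA minus untreated) of the bins of 8 gene lists, 1 point a bin, black bars for list medians, the grey band and line for the quartiles and median of all 5349 bins, and dotted lines at the threshold of 0.5. Red points passed it: CSF2 is the 1 rise, and APOE, JUNB and KLF1 (a shared bin), CEBPA, PRKCD, RASGRP4 and PLAUR are among the falls.

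The share of contacts with other autosomes was the measure on which most list bins moved. A gain above 5 points was called in 658 bins (12.3%), and a loss above 5 points in 6 (0.112%). CD68, a lysosomal glycoprotein of macrophages, lies in the bin ranked 3 of all, which went from 47.6% to 61.9%. The 2 bins above it hold MKNK2, OAZ1, LMNB2 and GADD45B at 2.0 Mb of chromosome 19 (50.2% to 66.1%) and FTL and BAX at 49.0 Mb (49.6% to 65.1%). ICAM1 (48.9% to 60.9%), EPOR (52.0% to 63.8%) and the ELANE bin (60.7% to 72.5%) followed among list genes. Per list, the bins with a gain were 6 of 21 for macrophage surface, 9 of 22 for transcription factors, 6 of 10 for granule proteins, 8 of 21 for promyelocyte growth, 4 of 20 for the protein kinase C pathway, 7 of 21 for adhesion, 6 of 16 for cytokines and 7 of 20 for other lineages. The longest run of gains covered 39 bins, the first 19.5 Mb of 19p, with a mean of 54.2% and 65.3%. With bins ranked into 10 groups by the ATRA eigenvector, the median gain of all bins was 5.13 points in the highest, 3.61 and 2.87 in the next 2 and 0.66 in the lowest, and the list medians lay between 3.36 and 5.63 points.

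Total contacts per bin, or coverage, changed less. Across bins, which are not independent, the coverage change was lower where untreated A preference was higher (r = -0.75). Of 5349 bins, 19 rose by more than 0.25 on the log2 scale (0.355%) and 26 fell (0.486%). The largest fall, at 6.5 to 7.0 Mb of chromosome 19, holds the complement gene C3 and VAV1, a signalling protein of blood cells, with 3488 and 2645 contacts (-0.38, -0.45 to -0.31). Next were the bin of FOSL1 and CFL1, an actin-severing cofilin, with 4538 and 3533 contacts, that of JUND (3665 and 2881), the end of 17q at 81.0 Mb (1982 and 1581) and that of the kinase STK11 (3093 and 2472). ACTB, which encodes beta actin, also fell (-0.28). The 5 largest rises lay beside centromeres, on chromosomes 19, 11, 7, 8 and 12, up to 0.35 at 24.5 Mb of chromosome 19 (1750 and 2198 contacts).

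Local contacts, the share of a bin's contacts within its arm that lie within 2 Mb, were set against the median log2 ratio of all bins, which was -0.33. Past 0.5 from that median, 67 bins fell (1.25%) and 2 rose (0.0374%). The deepest falls were at 29.5 Mb of chromosome 20 (38.6% to 16.3%), 58.5 Mb of chromosome 6 (24.6% to 10.7%) and 129.5 Mb of chromosome 5 (36.3% to 16.2%). Both rises, at 51.5 Mb of chromosome 11 and 143.0 Mb of chromosome 1, lay in sparsely covered bins, and 0 bins rose with a coverage minimum of 0.5 of the median. None of the list bins passed the threshold for local contacts in either direction.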

How the data were processed

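Cross-linked HL60 chromatin was cut with HindIII, per the labels' protocols. Bowtie alignment and HiCUP v0.5.826 filtering are given in the series' design text, while the submitters' processing notes name HOMER 4.7 and hg19. The authors deposited raw contact counts as 3 matrices with 6203 bins of 500 kb a side, in which the libraries of a group are merged, as the file headers and labels show. Read pairs are not independent molecules, so intervals cover counting error only.

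Values on the diagonal, all even, were divided by 2. The upper triangle was taken throughout, since 1 untreated cell was unlike its mirror cell. Bins needed 0.2 of the median coverage in all 3 matrices. A and B bins were the top and bottom 30% of the leading eigenvector of contacts between autosomes in the ATRA matrix. Bin pairs between autosomes with 20 or more contacts at 10 or more times the expectation were taken as joins and masked with 2.5 Mb around them for A preference. Arm pairs were fitted by iterative proportional fitting. Intervals follow Poisson counts (shares of arms: exact Clopper-Pearson). With 1 matrix a group there is no test and no p-value. Python 3.11.15, numpy 2.4.6, scipy 1.17.1 and pandas 2.3.3 were used, and the scripts were tested on simulated matrices with planted changes.

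Members, lists and thresholds were chosen with earlier results of these data known. Named were, save genes not reported here, those of largest change per list and in called bins, the 5 largest rises and falls per measure, runs of 3 or more bins, and the leading arm pairs and bin pairs. Genes inside the named bins and the 112 zinc finger genes were added after their values were seen. All 313 genes matched the chromosome and order of a GRCh38 RefSeq table, whose coordinates were not used. Sequences are not shown, since a bin of 500 kb points to no single site. Chromosomes X and Y and mitochondrial DNA were not analysed here. The bins of list genes not reported here are included in the counts.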

Additional observations from a re-analysis of the deposited data

How the results depend on the processing

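No paired analysis was possible because the libraries of each group are merged in 1 matrix, and for the same reason no library could be left out. Of 242 values recomputed under the alternatives, 216 stayed within their counting interval or within 1.5 times the count, 26 moved further and 0 reversed a called change. Only single bins, single arm pairs and the zinc finger contacts could be scored as reversed, not counts or list medians. A minimum of 40 contacts across leaves the value of a single bin as it was. At 45.0 Mb of chromosome 18 the interval reaches 3.46 either way, so almost any value stays within it. Values that an alternative left missing are not among them. At a coverage minimum of 0.5, contacts across had no value at 148.5 Mb of chromosome 7 and 48.0 Mb of chromosome 11. The same held at 32.5 Mb of chromosome 16 and 50.0 Mb of chromosome 3. With A and B bins from the top and bottom 20%, 225 bins rose in A preference and 238 fell, and relative to the arm median 30 rose. Calls kept relative to the arm median were 25 of 79 rises and 78 of 132 falls, and with A and B bins outside chromosomes 16, 17, 19, 20 and 22 they were 50 and 89. List medians moved past their interval for transcription factors (0.0026 as the mean of 3 bins, 0.15 with A and B bins from the summed matrices, 0.23 with 20% and 0.16 outside the small chromosomes), adhesion (-0.036 with a coverage minimum of 0.5), other lineages (-0.038 as the mean of 3 bins), promyelocyte growth (-0.10 from the arm median) and protein kinase C (0.058 from the arm median). Coverage fell in 15 bins when scaled to contacts between autosomes. Local contacts fell in 26 bins with the diagonal included, and 0 rose with a coverage minimum of 0.5. Contacts across fell in 121 bins with windows of 5 bins. Bin pairs gave 280 rises and 421 falls at 2-fold, and 0 and 2 with 80 contacts or more. As a double ratio, zinc finger contacts changed by 0.70 and 0.60. The causes were not tested, beyond fewer contacts or features passing. Depth limits single bin pairs to those with 40 contacts or more.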
